A study of Mus musculus with 10 samples.

Results

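The matrix metalloproteinases (MMPs), the ADAMTS proteases with their ADAMTS-like relatives, and the tissue inhibitors of metalloproteinases (TIMPs) were examined in osteocytes from myeloma-bearing and control mice. The members were all protein-coding genes of the table whose symbol begins with Mmp, Timp, Adamts or Adamtsl followed by a number. This rule gave 46 of 22548 genes, and no measured value entered it. Of these, 40 were among the 16186 genes that passed the filter on low counts and were tested. Mmp1a, Mmp1b, Mmp7 and Mmp10 were not analysed here.

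Osteocytes were isolated from the bone of C57BL/6 mice, labelled as male and 8 weeks old, and profiled by whole-transcriptome RNA-seq, with 1 library per mouse. The labels do not say whether that age is the age at injection or at isolation. The control group (No MM, mice 1 to 5) received no myeloma cells. The paper's methods say that controls of its myeloma model were given the same volume of phosphate-buffered saline, which its results do not mention. The other group (MM, mice 6 to 10) had been injected in the femur with Vk12598 cells, 1 murine line of Vk*MYC myeloma, and MM femurs were examined at week 6. Both groups were of the same strain, and no altered gene is stated for either. Marrow cells were first removed from the bone, and the cells were then released from bone pieces by serial digestion with collagenase and EDTA. The paper says that its primary osteocytes were characterized. No sorting step is stated, so other cells of bone and marrow could be present. In bulk RNA, fewer cells of a type and less RNA per cell cannot be told apart. Counts are given as CPM, scaled to library size by TMM, for comparisons of 1 gene between libraries. Levels of different genes are compared only as RPKM, the same CPM divided by gene length in kilobases.

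MMPs are zinc-dependent enzymes that cut the collagens and other proteins of the extracellular matrix. Most are made as inactive precursors and are switched on outside the cell by other proteases. TIMPs bind the active site and block it. ADAMTS enzymes trim procollagens and cut cartilage proteoglycans, whereas ADAMTS-like proteins lack the protease domain. In bone, collagenase and gelatinase activity is known from osteoblasts, osteocytes, osteoclasts and the neutrophils of the marrow.

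Several libraries stood apart. Immunoglobulin genes took 26.56% of the counts of the library labelled No MM 3 and 28.97% of the library labelled No MM 4, against 0.6365% to 3.862% in the other 8. These libraries also had the highest summed level of 10 plasma cell genes, 9749 and 9805 CPM, against 639.7 to 1343 CPM elsewhere, although they carry a control label. All 10 osteocyte genes examined, among them Dmp1, Phex and Sost, were detected, with summed levels of 379.6 to 2582 CPM. The 12 neutrophil genes summed to 7717 and 8947 CPM in No MM 3 and No MM 4, to 10960 CPM in MM 6 and to 24810 to 34930 CPM in the other libraries. Total counts ran from 31099174 to 39466332 per library, and 3 counts, taken as the smallest detectable number, corresponded to 0.076 to 0.0965 CPM. Such limits cover counting error only.

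Mmp13 and Mmp8, both collagenases, lie on the same strand of chromosome 9. Of the 46 members, Mmp12 and Mmp3 lie between them and Mmp27 and Mmp20 beyond. Genes of this region that are not members were not placed. In the deposited coordinates, which overlap those of GRCm38 for all 46 members, Mmp13 spans chr9:7272514-7283333 and Mmp8 spans chr9:7558429-7568486. Their upstream sequences are shown because the neighbouring genes had different levels across the 10 libraries, and that of Mmp14, the membrane-type activator of other MMPs, because it shares a motif with Mmp13. The windows are the 250 bases before the start in RefSeq (GRCm38.p6, plus strand), at chr9:7272264-7272513, chr9:7558179-7558428 and chr14:54431348-54431597. Capitals mark matches on either strand to the letters given after the sequences.
Mmp13: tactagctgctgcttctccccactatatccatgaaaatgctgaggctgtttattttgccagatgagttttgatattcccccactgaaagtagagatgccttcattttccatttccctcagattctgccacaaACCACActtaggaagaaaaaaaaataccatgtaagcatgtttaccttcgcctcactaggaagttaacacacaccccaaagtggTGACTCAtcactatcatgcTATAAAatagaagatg
Mmp8: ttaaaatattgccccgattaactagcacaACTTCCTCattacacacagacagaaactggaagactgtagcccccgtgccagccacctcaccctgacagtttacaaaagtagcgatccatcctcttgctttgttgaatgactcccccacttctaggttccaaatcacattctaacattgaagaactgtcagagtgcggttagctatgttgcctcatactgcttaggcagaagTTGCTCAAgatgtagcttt
Mmp14: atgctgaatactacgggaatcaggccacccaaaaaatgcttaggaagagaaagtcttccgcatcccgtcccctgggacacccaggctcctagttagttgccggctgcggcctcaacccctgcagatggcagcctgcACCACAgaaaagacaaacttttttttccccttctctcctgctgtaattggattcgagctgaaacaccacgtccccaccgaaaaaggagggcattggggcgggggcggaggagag

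RefSeq windows were matched for 32 of the 46 members. The AP-1 letters TGANTCA stood 35 bases before the start of Mmp13, and occurred in 4 of the 32 members and in 6.75% of all 32851 windows. The RUNX letters TGTGGT, read on the opposite strand, began 118 bases before the start of Mmp13 and 114 bases before that of Mmp14, with 4 of 32 members and 14% of all windows holding them. The TATA letters TATAAA stood 16 bases before the start of Mmp13, in 6 of 32 members and 12.4% of windows. Mmp8 held neither the AP-1 nor the RUNX letters in its window. It held the C/EBP letters TTGCNNAA 19 bases before its start, found in 4 of 32 members and 9.56% of windows, and the ETS letters GAGGAAGT on the opposite strand 221 bases before it, found in 2 of 32 members and 2.44% of windows. No marked motif overlapped another. The motifs were chosen after the windows had been read, and a match is a description of letters, not a site of binding.

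Per gene length, Mmp13 and Mmp9 dominated the family. Mean RPKM over the 10 libraries was 498.7 ± 407.9 (SD, n = 10) for Mmp13, which cuts fibrillar collagen, and 446.9 ± 309.7 for Mmp9, the gelatinase of osteoclasts and neutrophils. Their order did not hold beyond the spread, since Mmp13 was the higher in 6 libraries and Mmp9 in 4. Together they made 38.7% to 72.6% of the summed RPKM of the family. Mmp8, the neutrophil collagenase, followed at 121.4 ± 60.8 RPKM and was below Mmp9 in 10 of 10 libraries.

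A group of 5 genes came next. Mmp14 had a mean of 84.8 ± 41.1 RPKM, Timp2 78.6 ± 33.2, Timp1 77 ± 53.9, Mmp2 62.9 ± 38.6 and Timp3 48.5 ± 13.3. These neighbours changed places between libraries: Mmp14 exceeded Timp2 in 5 of 10 libraries, Timp2 exceeded Timp1 in 6, and Mmp2 exceeded Timp3 in 5. Mmp14 on the cell surface, with Timp2 bound to it, is known to activate the gelatinase precursor encoded by Mmp2. The ratio of Mmp14 to Timp2 RPKM ran only from 0.74 to 1.42, while Mmp14 alone varied 5.16-fold and Timp2 5.23-fold between libraries. The ratio of Mmp14 to Mmp2 ran from 0.948 to 2.15 and that of Mmp2 to Timp2 from 0.491 to 1.11. A narrow span was thus not particular to Mmp14 and Timp2.

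The ADAMTS genes were lower. Adamts10, whose product acts on fibrillin microfibrils, was the highest of them with 20.6 ± 8.98 RPKM, above Mmp23 with 19.2 ± 11.5 in 7 of 10 libraries, and below Timp3 in all 10. Of the 46 members, 11 had a mean of at least 10 RPKM and 28 of at least 1 RPKM. All ADAMTS genes together made 1.8% to 9.68% of the summed RPKM and all ADAMTS-like genes 0.216% to 2.95%. The TIMPs made 10.5% to 23.7%, with a ratio of summed TIMP to summed MMP RPKM of 0.136 to 0.356 in No MM and 0.123 to 0.258 in MM. The 2 highest of these ratios, 0.356 and 0.329, were those of No MM 3 and No MM 4, where summed MMP RPKM was 376 and 250 against 716 to 2400 in the other 8.

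**Figure D1:**
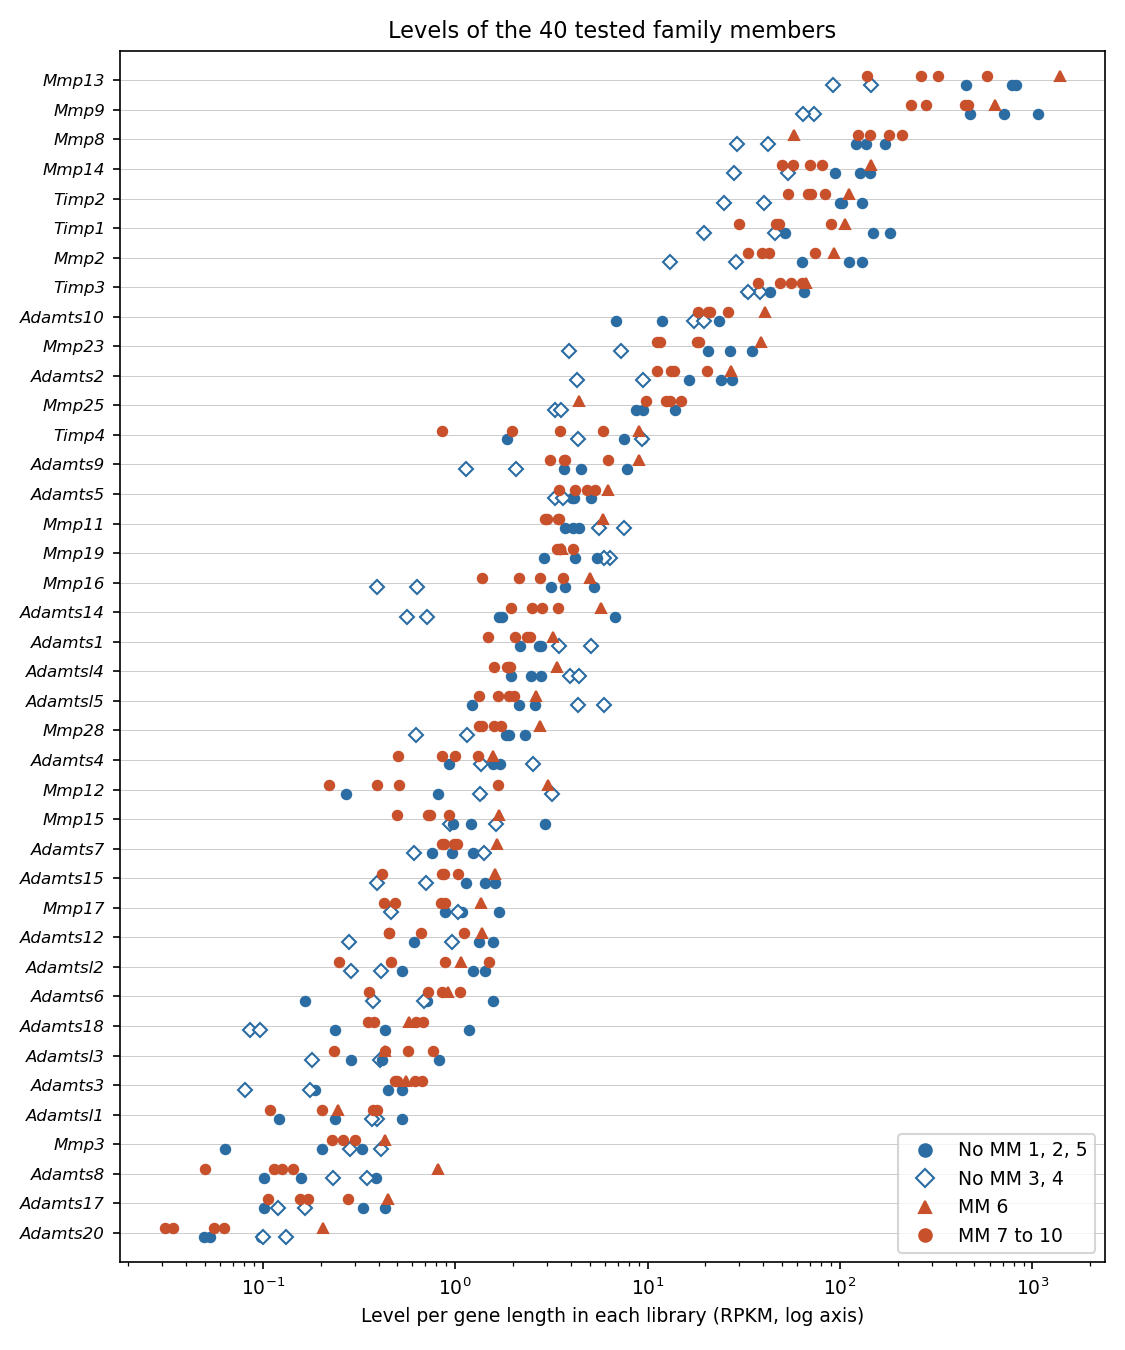
Level of each of the 40 tested members in each library, in RPKM on a log axis, with members ordered by mean. Blue points are No MM and red points MM, with open diamonds for No MM 3 and No MM 4 and triangles for MM 6; Mmp3 in MM 8 had 0 counts and is not drawn. Mmp13 and Mmp9 lie at the top, and for 13 of the 40 members the 2 open diamonds are the lowest points.

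No member passed the test between MM and No MM. Fitted over all 16186 genes by edgeR's quasi-likelihood test with Benjamini-Hochberg adjustment, 0 of 40 members passed an adjusted p of 0.05 in either direction, as for all genes tested, of which 0% were called higher and 0% lower. At an unadjusted p under 0.05, edgeR gave 0 of 40 members, against 3.81% of all tested genes higher and 10.3% lower in MM, 14.1% in all. With a 2-fold change asked for as well, it gave 0 members against 5.34% of genes. DESeq2 called 0 of 43 members with an adjusted p, against 0.176% of genes higher and 0.998% lower. The groups overlapped for every member tested, where all 5 MM libraries lay above all 5 No MM libraries for 0.729% of genes and below for 0.68%. The lowest adjusted p among members was 0.363 by edgeR.

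The log2 fold changes of MM over No MM ran from -0.77 to 0.99, with 20 members above 0 and 20 below. The share above 0 over all tested genes was 47.3%. The median was -0.02 for the members and -0.03 for all genes. Standard errors ran from 0.188 to 0.766 with a median of 0.457, and 31 of 40 changes were under 0.5 in size. A p that misses the threshold does not show that the groups were alike.

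Mmp13 (chr9:7272514-7283333) had 2194, 1204, 388.8, 245.9 and 2087 CPM in No MM 1 to No MM 5. In MM 6 to MM 10 it had 3724, 1563, 860.4, 368.5 and 704.9 CPM. MM 6 was the highest library, No MM 4 and MM 9 were among the 3 lowest, and the groups overlapped throughout. The means were 1224 ± 914 CPM in No MM and 1444 ± 1347 CPM in MM (SD, n = 5 each). The log2 fold change was 0.24 (SE 0.724, edgeR adjusted p = 0.9), with 2 SE on each side reaching from -1.21 to 1.69. The difference of means had p = 0.817 by the exact permutation test, two-sided, for which 252 assignments allow 0.00794 at the smallest. Without No MM 3 and No MM 4 the log2 fold change was -0.36 (SE 0.665), it was -0.03 without No MM 4 alone and -0.49 without MM 6, so its direction rested on these libraries.

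Mmp9 (chr2:164940780-164955850) had 3409, 1507, 233.2, 204.2 and 2273 CPM in No MM 1 to No MM 5. It had 2039, 1471, 745.4, 887.2 and 1420 CPM in MM 6 to MM 10. The MM libraries all lay within the span of the No MM libraries, between the low No MM 3 and No MM 4 and the high No MM 1 and No MM 5. The log2 fold change was -0.22 (SE 0.703, edgeR adjusted p = 0.906), and p = 0.73 by the exact permutation test, two-sided. It was -0.89 (SE 0.399, edgeR adjusted p = 0.643) without No MM 3 and No MM 4, and 0.32 without No MM 1.

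Mmp14 (chr14:54431604-54441258) had 328.4, 243.8, 139.7, 73 and 370.9 CPM in the No MM libraries. The MM libraries had 376.7, 209.8, 148.3, 130.4 and 181.6 CPM. MM 6 stood with No MM 1 and No MM 5 at the top, and No MM 4 was lowest. The log2 fold change was -0.14 (SE 0.436, edgeR adjusted p = 0.901), with p = 0.778 by the exact permutation test, two-sided. Without No MM 3 and No MM 4 it was -0.60 (SE 0.345, edgeR adjusted p = 0.643), and it was 0.02 without No MM 1 and 0.09 without No MM 5.

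**Figure D2:**
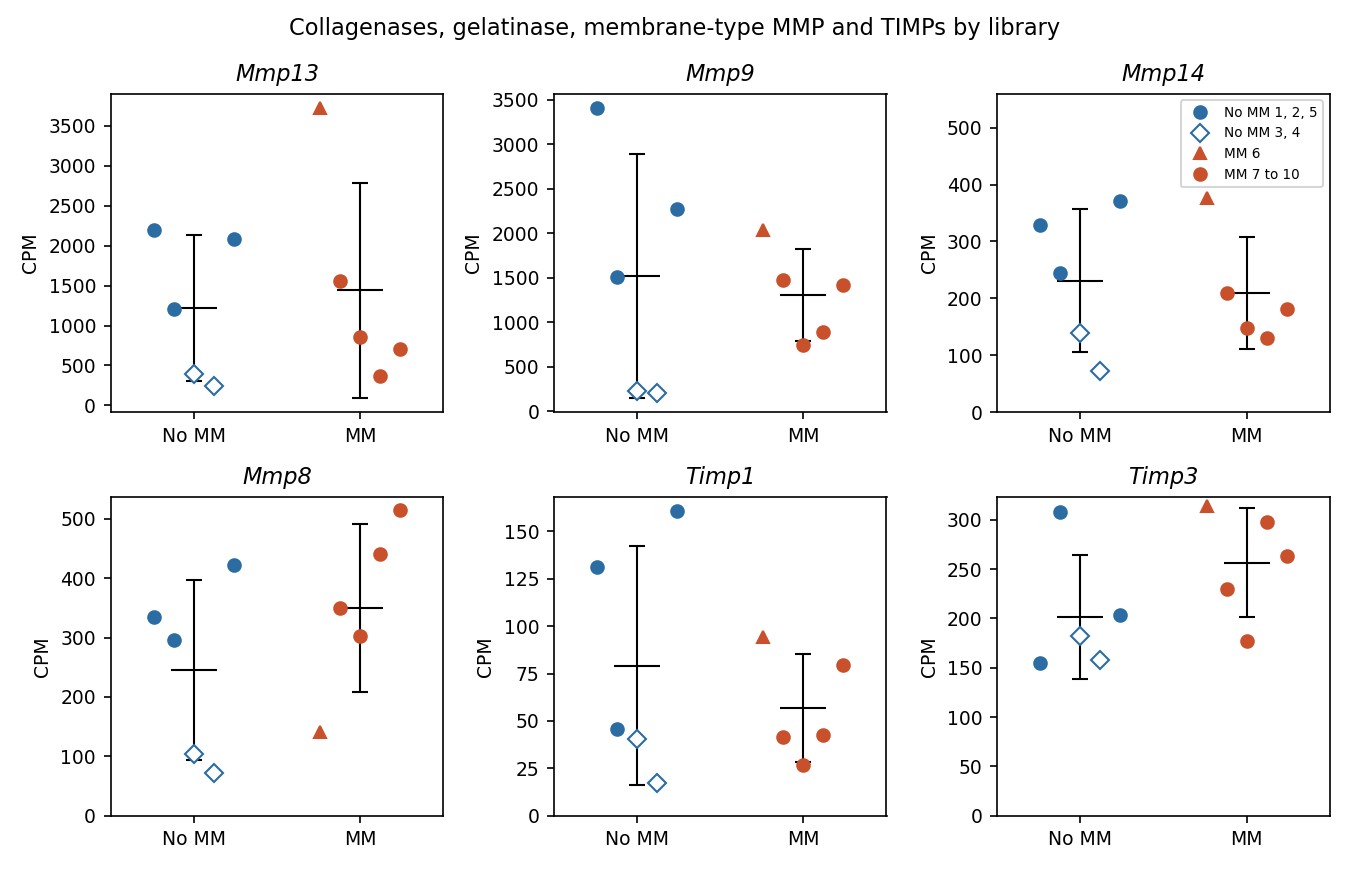
CPM of 6 members in each library, with No MM on the left and MM on the right of each panel; horizontal bars are group means and whiskers are 1 SD (n = 5 each). Open diamonds are No MM 3 and No MM 4 and triangles are MM 6. The groups overlap in every panel, from Mmp13 (1224 against 1444 CPM) to Timp3 (201.1 against 256.6 CPM).

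Mmp8 had 335.2, 296.1, 103.6, 71.5 and 422.5 CPM in No MM 1 to No MM 5, and 141.7, 349.7, 303.1, 440.3 and 514.9 CPM in MM 6 to MM 10. The low libraries were No MM 3, No MM 4 and MM 6. The log2 fold change was 0.51 (SE 0.495, edgeR adjusted p = 0.648), and it was -0.02 without No MM 3 and No MM 4. Mmp25, a membrane-anchored MMP of leukocytes, was likewise lowest in those 3 libraries, with 11.2, 11.9 and 14.9 CPM against 29.5 to 50.3 CPM in the other 7. Its log2 fold change was 0.49 (SE 0.433, edgeR adjusted p = 0.614), and 0.02 without No MM 3 and No MM 4. The ratio of Mmp25 to Mmp8 RPKM stayed between 0.0696 and 0.121 over the 10 libraries, whereas that of Mmp13 to Mmp8 ran from 0.768 in MM 9 to 24.1 in MM 6. The summed neutrophil genes, which hold neither Mmp8 nor Mmp25, were lowest in the same 3 libraries. So were the erythroid genes, with 949.7, 3413 and 7765 CPM against 11180 to 59810 CPM elsewhere, and the megakaryocyte genes, with 245.5, 586.7 and 767.8 CPM against 870.6 to 2569 CPM. S100a8, S100a9 and Ngp held 2112, 2927 and 815.1 of the 7717 CPM of the neutrophil sum in No MM 3. Of the neutrophil genes, only Csf3r departed from the pattern. It had 94.5 CPM in No MM 1, below 105.6 CPM in No MM 3 and 137.5 CPM in MM 6. The part of neutrophil, erythroid and megakaryocyte cells in the values of Mmp8 and Mmp25 was not tested.

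Bone cell markers also differed between the libraries that were low and high in Mmp13, Mmp9 and Mmp14. The 10 osteoblast genes, among them Bglap, Ibsp and Col1a1, summed to 3026 and 1824 CPM in No MM 3 and No MM 4, to 47630 CPM in MM 6 and to 12630 to 39780 CPM in the other 7 libraries. Col1a1 and Col1a2 made up most of this sum in each library, with 4973 and 6517 CPM of the 12630 CPM in MM 9. The 10 osteoclast genes, among them Acp5 and Ctsk, summed to 916.1 and 818.9 CPM in No MM 3 and No MM 4, to 7329 CPM in MM 6 and to 2177 to 11030 CPM elsewhere. None of these genes was at 0 in all libraries. In MM 9, Mmp13 (368.5 CPM) and Mmp14 (130.4 CPM) were below their values in No MM 3, 388.8 and 139.7 CPM. Mmp9 was above its value there, with 887.2 against 233.2 CPM. So were the summed osteoblast genes, with 12630 against 3026 CPM, and the summed osteoclast genes, with 2526 against 916.1 CPM. Within these lists, Alpl (osteoblast, 92.26 against 112.3 CPM) and Calcr (osteoclast, 1.27 against 2.26 CPM) were lower in MM 9. The other genes of both lists were higher there. In MM 6, Mmp13 was highest with the osteoblast genes while Mmp8 was lowest of the MM libraries with the neutrophil genes. The part of these cells in the MMP values was not tested.

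**Figure D3:**
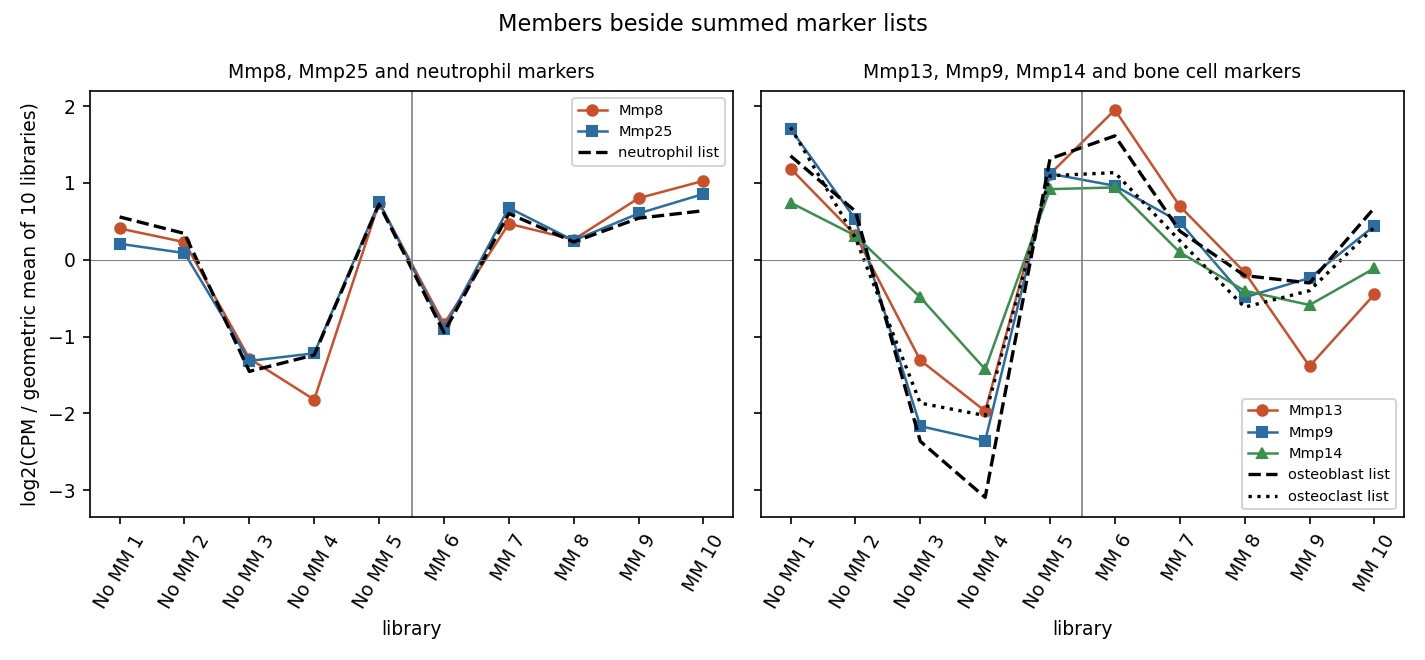
Level of members and summed marker lists in each library as log2 of CPM over the geometric mean of the 10 libraries; lines join the values of 1 gene or list, and the vertical line parts No MM from MM. On the left, Mmp8, Mmp25 and the neutrophil list are all low in No MM 3, No MM 4 and MM 6. On the right, Mmp13, Mmp9, Mmp14 and the osteoblast and osteoclast lists are low in No MM 3 and No MM 4 and high in MM 6. In MM 9, Mmp13 and Mmp14 are below their No MM 3 values, whereas Mmp9 and both lists are above theirs.

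Counted over the family, a pattern chosen after the values were seen, No MM 3 and No MM 4 were the 2 lowest of the 10 libraries for 13 of 40 members, against 20.7% of all tested genes. The 13 included Mmp2, Mmp8, Mmp9, Mmp25, Timp2 and Adamts2. These libraries were the 2 highest for 4 of 40 members, Adamts1, Adamtsl4, Adamtsl5 and Mmp19, against 24% of genes. Within the MM group, MM 6 was the highest library for 31 of 40 members, against 33.5% of genes, and the lowest for 2, against 34.9%. The 2 members lowest in MM 6 were Mmp8 and Mmp25. MM 6 also had the highest sums of the MM group for 6 of the 14 marker lists. They were 1869 CPM for osteocyte genes against 427.3 to 1653 CPM, 7329 CPM for osteoclast genes against 2177 to 4480 CPM, and 666.3 CPM for endothelial genes against 364.1 to 503.4 CPM, beside those for osteoblast, chondrocyte (1637 CPM) and skeletal muscle genes (6353 CPM). Their part in the values of MM 6 was not tested.

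The second gelatinase, Mmp2, had 396.6, 192.3, 87.1, 39.7 and 337.8 CPM in No MM and 281.6, 129.5, 119.9, 101.3 and 224.2 CPM in MM. No MM 3 and No MM 4 were the lowest of all. Its log2 fold change was -0.30 (SE 0.555, edgeR adjusted p = 0.826). Without these libraries Mmp2 was the only 1 of 40 members with an unadjusted p under 0.05 by edgeR, at -0.87 (SE 0.383, edgeR adjusted p = 0.643), against 2.51% of genes higher and 3.37% lower, 5.89% in all. DESeq2 without them gave 5 members, Adamts10 higher and Timp1, Timp2, Mmp9 and Mmp2 lower, against 3.27% of genes higher and 2.85% lower.

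Of the 4 inhibitors, none passed the test. Timp1, a secreted inhibitor that also binds the Mmp9 precursor, ran from 17.3 to 160.9 CPM in No MM and from 26.5 to 94.3 CPM in MM, with a log2 fold change of -0.48 (SE 0.567, edgeR adjusted p = 0.712). Timp2 ran from 92.3 to 482.7 CPM and from 198.1 to 412.9 CPM, with a change of -0.04 (SE 0.414, edgeR adjusted p = 0.977). The matrix-bound Timp3 varied less, 2.04-fold over all 10 libraries, from 154.4 to 307.9 CPM in No MM and from 177 to 314.4 CPM in MM, with a change of 0.35 (SE 0.238, edgeR adjusted p = 0.504). Timp4, the rarest inhibitor with 5.36 ± 3.32 RPKM, ran from 2.62 to 13.3 CPM and from 1.21 to 12.9 CPM, with a change of -0.61 (SE 0.611, edgeR adjusted p = 0.662). The spans of the groups lay over each other for all 4. With No MM 3 and No MM 4 left out, the change was -1.0 (SE 0.48) for Timp1, -0.53 (SE 0.254) for Timp2, 0.19 (SE 0.271) for Timp3 and -0.57 (SE 0.728) for Timp4, with edgeR adjusted p = 0.643 for both Timp1 and Timp2. Timp1, Timp3 and Timp4 each lie within a synapsin gene of the opposite strand, and Timp2 overlaps BC100451 on its own strand. These overlapping genes were low, with at most 167 counts in a library for Syn1 at Timp1, 62 for Syn3 at Timp3, 45 for Syn2 at Timp4 and 21 for BC100451. Whether the counting used strand is not given in the sources used here, although the kit keeps it.

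The most positive log2 fold change was that of Adamts3, an N-proteinase of procollagens. It had 1.41, 4.03, 0.614, 1.34 and 3.41 CPM in No MM 1 to No MM 5 and 4.22, 3.68, 4.68, 3.8 and 5.13 CPM in MM 6 to MM 10. The MM libraries lay close together, with a mean of 4.30 ± 0.606 CPM against 2.16 ± 1.47 CPM, and only No MM 2 reached into their range. The log2 fold change was 0.99 (SE 0.46, edgeR unadjusted p = 0.0549, adjusted p = 0.363), and DESeq2 gave 1.0 (unadjusted p = 0.0296, adjusted p = 0.233). Without No MM 3 and No MM 4 it was 0.53 (SE 0.348, edgeR adjusted p = 0.65).

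Adamts10 had 28.4, 48.7, 72, 81.1 and 97.3 CPM in No MM and 167.7, 75.7, 87.1, 84.5 and 108.1 CPM in MM. MM 6 and MM 10 lay above all No MM libraries, and the other 3 MM libraries lay within the No MM span. The log2 fold change was 0.68 (SE 0.33, edgeR adjusted p = 0.38), and 0.84 (SE 0.404) without No MM 3 and No MM 4. Adamts14, another procollagen N-proteinase, had 2.9 to 35.4 CPM in No MM and 10.1 to 29.6 CPM in MM. Its change of 0.51 (SE 0.622, edgeR adjusted p = 0.725) became 1.48 (edgeR adjusted p = 0.105) without No MM 5, the library with 35.4 CPM, and -0.07 without No MM 3 and No MM 4. The remaining procollagen N-proteinase and the most abundant of the 3, Adamts2, had 16.8 ± 7.8 RPKM and a log2 fold change of 0.07 (SE 0.447).

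The most negative changes were in rarer members. Adamtsl5, an ADAMTS-like protein of the matrix, had 8.84, 10.7, 17.9, 24.5 and 5.05 CPM in No MM and 5.46 to 10.8 CPM in MM. Its 2 highest libraries were No MM 3 and No MM 4, and the change of -0.77 (SE 0.393, edgeR adjusted p = 0.397) was -0.08 without them. Adamtsl4, known from the fibrillin fibers that hold the lens, likewise had its 2 highest libraries there, with 15.9 and 17.8 CPM against 6.45 to 13.6 CPM elsewhere, and its change of -0.55 (SE 0.293) was -0.20 without them.

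Mmp15, a membrane-type MMP, had 4.07 to 12.8 CPM in No MM and 2.17 to 7.37 CPM in MM. Its change of -0.74 (SE 0.421, edgeR adjusted p = 0.435) was -0.92 (SE 0.478) without No MM 3 and No MM 4. The aggrecanase Adamts4 had 4.05 to 11.2 CPM in No MM and 2.21 to 6.91 CPM in MM. Its change of -0.63 (SE 0.361, edgeR adjusted p = 0.438) was -0.44 without No MM 3 and No MM 4. Both genes therefore overlapped between the groups and kept a negative change without these libraries, short of the threshold in each fit.

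By subfamily, the 2 collagenases had a median log2 fold change of 0.37 and the 2 gelatinases one of -0.26. The 5 membrane-type MMPs tested had a median of -0.14, the 3 procollagen N-proteinases 0.51, the 7 ADAMTS proteoglycanases -0.14, the 5 ADAMTS-like genes -0.32 and the 4 TIMPs -0.26. The 2 stromelysins had a median of -0.27, the 4 other MMPs -0.09 and the 6 other ADAMTS genes 0.13. No subfamily held a member that passed the test. When No MM 3 and No MM 4 were left out, the collagenases had a median of -0.19, the gelatinases of -0.88, the membrane-type MMPs of -0.60, the other MMPs of -0.23, the procollagen N-proteinases of -0.07, the other ADAMTS genes of -0.16 and the TIMPs of -0.55. The medians were higher than with all libraries for the stromelysins at 0.06, the proteoglycanases at -0.06 and the ADAMTS-like genes at -0.18. The median of all 40 members was then -0.21, against -0.02 for all genes, with 10 members above 0 and 30 below. All tested genes then had 48.4% above 0. Between these fits 13 members turned from higher to lower in MM and 3 from lower to higher.

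**Figure D4:**
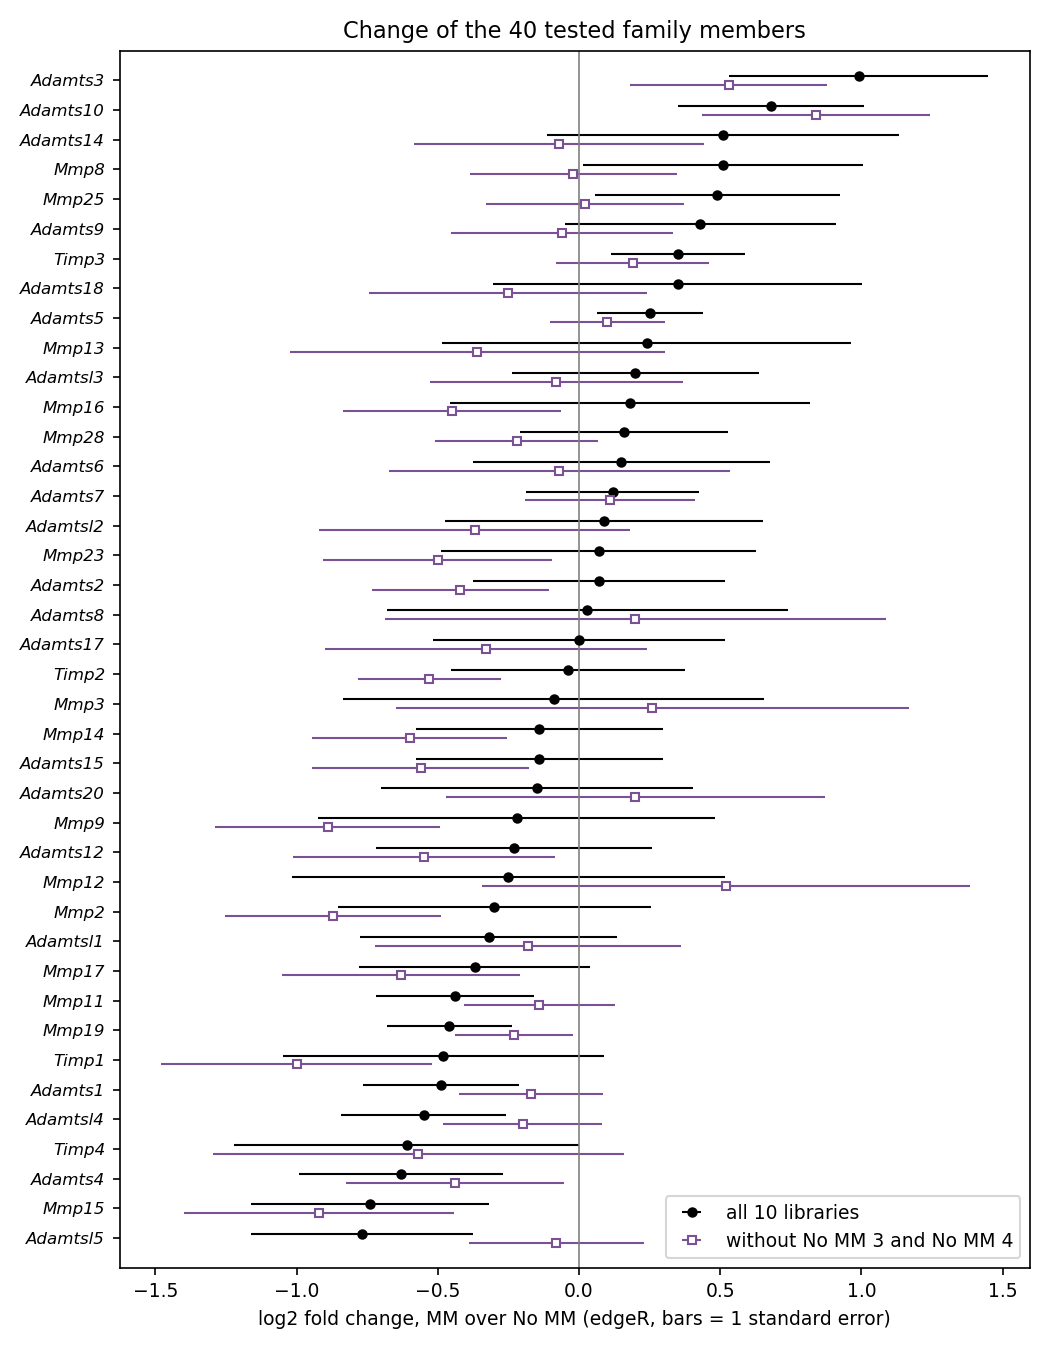
Log2 fold change, MM over No MM, of the 40 tested members by edgeR, with bars of 1 standard error; filled circles use all 10 libraries and open squares leave out No MM 3 and No MM 4. The open square lies to the left of the filled circle for 27 of the 40 members, and the median moves from -0.02 to -0.21.

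The 6 members that did not pass the filter were Adamts13, with 5 to 19 counts per library, Adamts16, with 1 to 11, Mmp27, with 5 to 11, Mmp21 and Mmp24, with 0 to 6 each, and Mmp20, with 0 to 1. Adamts13, which cuts von Willebrand factor, was with Adamts3 the other of 2 members at an unadjusted p under 0.05 by DESeq2 among 46, against 14% of all genes. Its level was 0.441 ± 0.196 CPM in No MM and 0.219 ± 0.038 CPM in MM, with a log2 fold change of -0.97 (DESeq2 adjusted p = 0.251). Mmp24 overlaps BC029722 on the opposite strand, and Adamts7 overlaps Tbc1d2b, which had 1109 to 6442 counts against 91 to 345 for Adamts7, so both are uncertain without strand. Mmp28 shares 466 bases with 1700020L24Rik of the opposite strand, which had 152 to 812 counts against 59 to 366 for Mmp28. Mmp19 shares 789 bases with Tmem198b of the opposite strand, which had 215 to 525 counts against 260 to 761 for Mmp19. Mmp28 and Mmp19 are likewise uncertain without strand. Adamts2 and Adamts9 overlap genes of lower counts.

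Around the family, 52 further genes were examined: activators of MMP precursors, other inhibitors, matrix substrates, regulators and ADAM relatives. Of these, 51 were in the table, 45 were tested and none was called by edgeR or DESeq2. At an unadjusted p under 0.05, edgeR gave 0 higher and 2 lower in MM, the activator Plat and the ADAMTS-like Papln, where the shares over all tested genes were 3.81% higher and 10.3% lower. Plat, the tissue plasminogen activator, had 6.32, 6.17, 16.4, 6.06 and 5.78 CPM in No MM and 6.83, 2.73, 3.1, 2.65 and 4.92 CPM in MM. No MM 3 was far above the rest, and the log2 fold change of -1.01 (SE 0.405, edgeR adjusted p = 0.323) was -0.61 without No MM 3 and No MM 4. Papln, which encodes papilin, had 16 and 22.9 CPM in No MM 3 and No MM 4 and 0.496 to 2.87 CPM in all others. Its log2 fold change of -2.25 (SE 0.8, edgeR adjusted p = 0.315) was -0.15 without them. The 13 substrates had a median change of 0.08, with none at an unadjusted p under 0.05.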

How the data were processed

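Osteocyte RNA from 5 No MM and 5 MM mice was sequenced as 76-base paired ends from TruSeq Stranded Total RNA libraries, and all 10 libraries were used. The submitters' processing notes name FastQC 0.11.5 and STAR; the counting program, annotation and genome build are not given in the sources used here. The authors deposited read counts per gene, as whole numbers without normalization, and these counts were analyzed. The authors also deposited a signal, the counts divided by 1 size factor per library, and FPKM values per gene length, which were not analyzed further. The deposited log2 fold changes and p-values are the authors' own comparison and were not used.

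In edgeR 4.0.16 (R 4.3.3), filterByExpr removed genes of low counts, TMM gave the scaling, and glmQLFit with glmQLFTest compared the groups with no covariate. Adjustment ran over all 16186 genes. The SE beside an edgeR log2 fold change is the size of that change divided by the square root of the test's F statistic. A span of 2 SE on each side is therefore not a confidence interval of the test. The paper calls its own differential analysis paired, but the labels pair no mice, so the fit here was unpaired. For Mmp13, Mmp14 and Mmp9, mean CPM was also compared by an exact permutation test over the libraries. Whether mice of a group were kept or processed apart is not stated, so p-values measure only the spread between these libraries. The tests were checked on counts simulated with the means and spread of these libraries. Of 200 genes given a log2 change of 1, edgeR called 1% and DESeq2 26%. With a log2 change of 2 they called 66.5% and 85%. With no change given, edgeR called 0 and DESeq2 14 of 16186 genes. In the runs with a log2 change of 1 and 2, unchanged genes were called as well. These numbered 0 and 7 for edgeR, and 26 and 65 for DESeq2. In this simulation most changes of 2-fold were thus missed by both. The alternatives were DESeq2 1.42.0, RLE and upper quartile factors, other filters, a 2-fold threshold, immunoglobulin genes left out, No MM 3 and No MM 4 left out, and each mouse left out. DESeq2 without No MM 3 and No MM 4 was chosen after seeing the data.

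Named were Mmp13, Mmp14, Mmp9, the TIMPs, the 10 members highest per length, members at an unadjusted p under 0.05 or without overlap, the 5 changes highest and the 5 lowest, members below the filter, and further pathway genes at an unadjusted p under 0.05. Other members were named after their values were seen. Members and gene lists were chosen with earlier results of these data known, although the name rule for the members used no measured value. Protein sequences were not used here.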

Additional observations from a re-analysis of the deposited data

Results flagged for a closer look

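In a group of 5 libraries, 1 value was noted where its gap to the nearest other exceeded 0.71 of the whole range, which chance alone does in about 1 of 20 groups. Of 108 sets of 5 values, for the 40 members and 14 marker lists, 9 were noted, and 8 of these concerned the same library, MM 6. Mmp23 had 55.58 CPM in MM 6 against 16.1 to 26.6 CPM in the other MM libraries. Mmp11, a stromelysin, had 13.43 CPM against 6.67 to 7.88 CPM. Adamtsl4 had 13.64 CPM against 6.45 to 7.81 CPM, and Mmp28 had 9.469 CPM against 4.55 to 5.97 CPM. Adamts7 had 8.926 CPM against 4.61 to 5.52 CPM. In the 6045 bases it shares with Tbc1d2b, reads of the 2 genes cannot be told apart without strand. The same holds for the 466 bases that Mmp28 shares with 1700020L24Rik. Among the rarest members, Adamts8 had 2.975 CPM against 0.182 to 0.52 CPM, and Adamts20 had 1.423 CPM against 0.213 to 0.432 CPM. The 10 skeletal muscle genes summed to 6353 CPM in MM 6 against 670.3 to 2078 CPM in MM 7 to MM 10, and their part in these values was not tested. In No MM, Adamts14 had 35.36 CPM in No MM 5 against 2.9 to 9.04 CPM in the other 4.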

How the results depend on the processing

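No member was called at an adjusted p under 0.05 by any alternative, with the lowest adjusted p 0.105, for Adamts14 without No MM 5. RLE or upper quartile factors, immunoglobulin genes left out and DESeq2 turned no member's direction. DESeq2 called 31 genes higher and 176 lower in MM, and without No MM 3 and No MM 4 it called 2 and 2; a 2-fold threshold at an unadjusted p under 0.05 gave 225 and 639, with no member among them. Members at an unadjusted p under 0.05 numbered 1 higher (Adamts3) and 1 lower (Adamts13) by DESeq2, 1 higher (Adamts3) with at least 10 counts in every library, and 1 lower (Adamts13) with no filter. Without No MM 3 and No MM 4 there was 1 lower by edgeR (Mmp2), and 1 higher (Adamts10) and 4 lower (Timp1, Timp2, Mmp9 and Mmp2) by DESeq2, against 3.27% and 2.85% of all genes. With 1 library left out there were 0 to 4 higher and 0 to 5 lower, and 0 to 3 members without overlap, where the shares over all genes were 1.78% to 7.8% higher, 5.73% to 14.5% lower and 1.52% to 8.38% without overlap. The 4 higher came without No MM 5 (Adamts3, Adamts10, Adamts14 and Adamts18; 7.8% of all genes), and the 5 lower without MM 6 (Adamts1, Adamts8, Adamtsl4, Mmp11 and Mmp15; 10.6% of all genes), where the last 3 also had no overlap (5.3% of all genes). Leaving out No MM 1, No MM 2, MM 7 or MM 9 also moved these counts from 0, and 1 or 2 members had no overlap without No MM 1, No MM 2 or No MM 5. The causes were not tested.

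Without No MM 3 and No MM 4, log2 fold changes turned negative, with the edgeR value and then the DESeq2 value where it differed, for Mmp13 (-0.36, -0.35), Mmp8 (-0.02, -0.01), Mmp16 (-0.45, -0.44), Mmp23 (-0.50, -0.49), Mmp28 (-0.22, -0.21), Adamts2 (-0.42, -0.41), Adamts6 (-0.07, -0.08), Adamts9 (-0.06), Adamts14 (-0.07), Adamts17 (-0.33), Adamts18 (-0.25, -0.26), Adamtsl2 (-0.37) and Adamtsl3 (-0.08). They turned positive for Mmp3 (0.26, 0.27), Mmp12 (0.52, 0.51) and Adamts20 (0.20).

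With 1 library left out, values crossed 0 for 20 members. The ranges were -0.49 to 0.56 for Mmp13, -0.46 to 0.09 for Mmp14, -0.50 to 0.32 for Mmp9, -0.57 to 0.06 for Mmp2, -0.40 to 0.24 for Mmp3, -0.99 to 0.31 for Mmp12, -0.10 to 0.60 for Mmp16, -0.33 to 0.42 for Mmp23, -0.06 to 0.34 for Mmp28 and -0.27 to 0.21 for Timp2. They were -0.18 to 0.33 for Adamts2, -0.10 to 0.68 for Adamts6, -0.09 to 0.27 for Adamts7, -1.17 to 0.29 for Adamts8, -0.50 to 0.03 for Adamts12, -0.41 to 0.07 for Adamts15, -0.38 to 0.35 for Adamts17, -0.91 to 0.06 for Adamts20, -0.23 to 0.43 for Adamtsl2 and -0.02 to 0.59 for Adamtsl3. No paired analysis like that named by the paper was possible from the labels, because no replicate number stands in both groups.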
